A study of Homo sapiens with 12 samples.

Results

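Serine/arginine-rich (SR) splicing factors were followed in polysome-associated RNA of triple-negative breast cancer (TNBC) cell lines as 10 genes, SRSF1, SRSF2, SRSF3, SRSF4, SRSF5, SRSF6, SRSF7, SRSF9, SRSF10 and SRSF11. The genes were chosen by symbol and not by a rule on their values. Earlier results of these data were known when the choice was made. They are 10 of 24559 gene symbols in the series, and all 10 were among the 16538 symbols with enough counts to be tested. Counts of all transcripts of a symbol were summed, and the same counts were also split by annotated transcript type into protein_coding, nonsense_mediated_decay (NMD) and retained_intron. Of 120 annotated transcripts of the 10 genes, 116 were listed in the data: 45 protein_coding, 27 NMD, 27 retained_intron and 17 of a type without a defined coding sequence.

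SR proteins carry RNA recognition motifs and a tail of arginine-serine repeats. They bind exons of precursor mRNAs and help the spliceosome find neighboring splice sites, and several of them also take part in mRNA export and translation. Many SR genes contain a poison exon, an alternative exon whose inclusion brings in an early stop codon, so that the resulting mRNA is recognized during translation and degraded by nonsense-mediated decay. SR proteins are known to promote inclusion of such exons in their own transcripts, which limits how much SR protein a cell makes. A transcript with a retained intron is usually kept in the nucleus or degraded.

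The study asked how TRMT112, an activator subunit of several RNA and protein methyltransferases including the enzyme pair that methylates 18S rRNA, affects translation in TNBC cells. The series holds 12 libraries, 2 in each of 6 groups, all from polysome fractions of sucrose gradients prepared with cycloheximide from established lines that received no drug treatment. MDA-MB-231 and SUM159 cells carried either a control vector (EV CTRL in the labels, a non-silencing shRNA vector in the methods) or a TRMT112 shRNA (KD), and BT549 cells carried a TRMT112 expression plasmid (OE) or its empty counterpart (EV), after antibiotic selection. Whether the lines are clones or pools, and whether the replicates come from separate cultures, is not stated, so p-values measure only the spread between these libraries, which may be technical. SUM159 cells were grown with insulin and hydrocortisone and BT549 cells in RPMI medium, so that medium and line cannot be told apart. No library of total RNA was analysed here: a level in polysomes depends on the amount of the mRNA and on its loading with ribosomes, and these cannot be told apart, nor can less RNA per cell and fewer cells with the RNA.

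The libraries held between 22954226 and 27434677 expected counts. Values are given as CPM (counts scaled to a common library total) after TMM normalization, which sets the libraries relative to each other, and the median absolute log2 difference between the 2 libraries of a group was 0.07 to 0.08 over all genes and 0.02 to 0.06 over the 10 SR genes. TRMT112 moved as labelled. It was at 173 and 165 CPM in MDA-MB-231 EV against 73.8 and 70.4 in KD (log2 fold change −1.23), at 265 and 275 in SUM159 EV against 163 and 155 in KD (−0.76), and at 129 and 129 in BT549 EV against 179 and 181 in OE (0.48). Of the receptors that define TNBC, PGR reached at most 0.417 CPM and ERBB2 lay between 57.9 and 143 CPM. No listed transcript was matched to ESR1, so that ESR1 has no value here. The mesenchymal marker VIM was at 704 to 1986 CPM in all 12 libraries, and KRT8 and KRT18 were below 1 CPM in BT549 only. Other mesenchymal markers varied more, FN1 from 28.8 to 638 CPM and SPARC from 7.75 to 1910 CPM, both lowest in MDA-MB-231 EV. The leukocyte marker PTPRC stayed at or below 0.570 CPM and the liver marker ALB at or below 0.183 CPM. The endothelial marker PECAM1 was at 1.03 and 1.06 CPM in SUM159 EV and 3.70 and 4.30 in KD. CDH5, also endothelial, was at 0.708 and 0.611 CPM in MDA-MB-231 EV and 4.11 and 3.26 in KD.

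The poison exons are shown here because they are what separates the NMD transcripts from the coding transcripts of the same gene. In 5 of the 10 genes the most abundant annotated NMD transcript had its stop codon in an exon that no coding transcript of the gene has. Each sequence runs from the first base of that exon to the end of the stop codon, 5′ to 3′ on the gene's strand, with the in-frame stop codon in capitals, read from GRCh38 with GENCODE 44 exons.
SRSF3-203, exon 4, chr6:36599821-36599854, plus strand: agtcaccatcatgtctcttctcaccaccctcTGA
SRSF4-208, exon 4, chr1:29166009-29166064, minus strand: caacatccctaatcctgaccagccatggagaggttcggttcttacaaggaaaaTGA
SRSF6-202, exon 3, chr20:43459153-43459304, plus strand: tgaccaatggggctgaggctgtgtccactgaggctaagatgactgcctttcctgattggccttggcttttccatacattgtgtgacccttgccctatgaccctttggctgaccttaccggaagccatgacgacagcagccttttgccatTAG
SRSF7-204, exon 4, chr2:38749319-38749346, minus strand: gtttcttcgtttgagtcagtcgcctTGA
SRSF11-217, exon 4, chr1:70230557-70230615, plus strand: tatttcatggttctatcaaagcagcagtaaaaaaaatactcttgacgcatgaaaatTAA
The stop codon ended at base 34, 56, 152, 28 and 59 of the exon in SRSF3, SRSF4, SRSF6, SRSF7 and SRSF11. The whole exons in which SRSF3-203, SRSF6-202 and SRSF7-204 stop are 456, 268 and 449 bases long. All 5 stops lay well upstream of the last exon junction, by 548 bases in SRSF3-203, 875 in SRSF4-208, 534 in SRSF6-202, 697 in SRSF7-204 and 1149 in SRSF11-217. The proteins they would end are short, at 124, 160, 135, 137 and 131 residues.

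The other NMD transcripts were built differently. SRSF1-206, the most abundant NMD transcript of SRSF1, stopped in its first exon, which it shares with coding transcripts, and held 37 bases that no coding transcript has. The main SRSF2 NMD transcripts, SRSF2-208 and SRSF2-204, ended at the stop codon of the coding transcripts and differed by splicing downstream of it, with the last junction 105 and 209 bases after the stop. They hold 0 bases that are absent from coding transcripts, so that a read can be given to them only by its junctions or by the estimate of the counting tool. The main NMD transcripts of SRSF5, SRSF9 and SRSF10 were each at or below 1.97 CPM in every library. Among the transcripts with a printed exon, SRSF4-208 (1.42 to 4.14 CPM), SRSF11-217 (0.234 to 2.43 CPM) and SRSF7-204 (0.531 to 11.3 CPM) were also low.

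The SR genes differed widely in level. Per length, as TPM (counts per transcript length, scaled to a common total) averaged over the 12 libraries, the order was SRSF3 (700.3), SRSF9 (596), SRSF1 (413), SRSF7 (247), SRSF5 (203), SRSF2 (193), SRSF10 (144), SRSF4 (119), SRSF6 (83.6) and SRSF11 (56.9). SRSF2 lay above SRSF10, and SRSF4 above SRSF6, in all 12 libraries without overlap in any group. SRSF5 lay above SRSF2, its neighbor in that order, in 7 of 12 libraries, and SRSF3 was above SRSF9 in 8 of 12 libraries, the 4 of MDA-MB-231 being the exception. SRSF9 was above SRSF1 in 8 of 12 libraries, the 4 of BT549 being the exception. By mean TPM the 10 genes lay between percentiles 86.8 and 99.2 of all symbols.

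**Figure D1:**
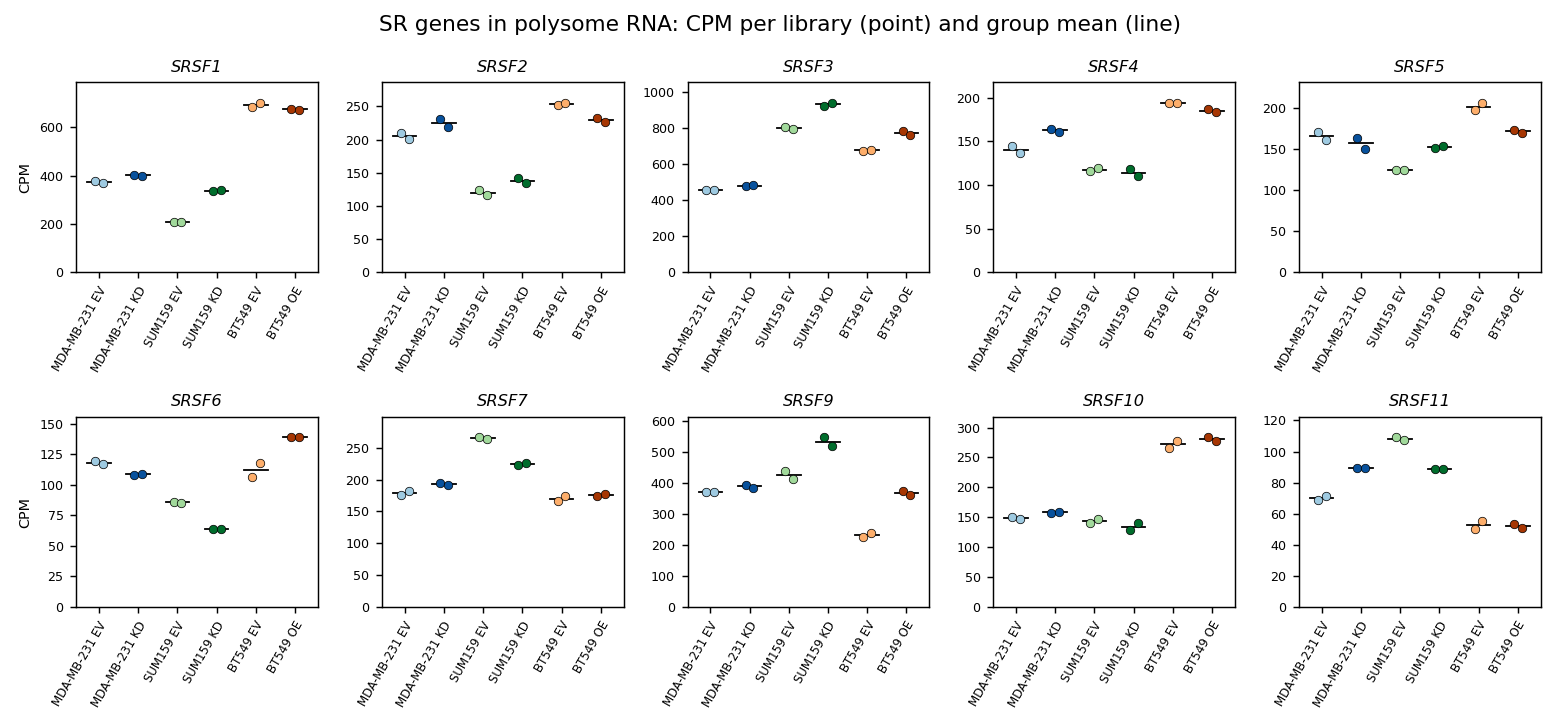
CPM (TMM-scaled counts, linear axes from 0) of each SR gene in the 12 libraries; points are libraries, lines are means of the 2 libraries of a group. SRSF1 ranged from 208 CPM in SUM159 EV to 702 CPM in BT549 EV, and its 6 groups do not overlap.

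Changes with TRMT112 knockdown in MDA-MB-231 were small. Of the 10 genes, 6 rose and 1 fell in KD (edgeR quasi-likelihood test, Benjamini-Hochberg adjusted p under 0.05), and 21.2% of all tested genes were called higher and 16.5% lower. The median log2 fold change was 0.10 over the 10 genes and 0.00 over all genes, and the median absolute change was 0.11 against 0.23 over all genes. With scaling by library size alone the share of higher genes among all called genes moved from 56.2% to 36.7%, and the SR genes went from 6 higher and 1 lower to 2 higher and 2 lower. SRSF4 and SRSF11 were then still higher and SRSF6 lower, SRSF5 was also called lower, and SRSF1, SRSF2, SRSF3 and SRSF7 were no longer called.

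SRSF11 (chr1:70205682-70253052, plus strand), a relative of the SR proteins that binds the U2AF factor at 3′ splice sites, changed most. It was at 68.7 and 71.6 CPM in MDA-MB-231 EV and at 89.2 and 89.1 CPM in KD, so that both KD libraries were above both EV libraries. The log2 fold change was 0.35 ± 0.05 (SE, n = 2 per group; edgeR adjusted p = 3.06e-06), and it was called under every scaling and without any one library. SRSF4 (chr1:29147743-29181900, minus strand), an SR protein with tandem RNA recognition motifs, was at 145 and 137 CPM in EV and 165 and 161 CPM in KD. It rose by 0.21 ± 0.04 (edgeR adjusted p = 1.31e-04) and also kept its call under every alternative.

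The other called genes moved by 0.13 or less on the log2 scale. SRSF2 (209 and 201 CPM in EV, 231 and 219 in KD) rose by 0.13, but the call was lost without EV replicate 2 (edgeR adjusted p = 0.0809) or KD replicate 1 (0.119). SRSF1 (378 and 368 against 404 and 399 CPM) rose by 0.11 and kept the call without any one library, but not with scaling by library size alone, where the change was 0.02. The 2 SRSF1 groups did not overlap. SRSF7 (176 and 183 against 195 and 192 CPM) rose by 0.11, a call lost without EV replicate 1 (edgeR adjusted p = 0.175) or KD replicate 1 (0.112). SRSF3 (459 and 455 against 478 and 485 CPM) rose by 0.08, a call lost without any one of the 4 MDA-MB-231 libraries (adjusted p 0.0573 to 0.143, edgeR) and turned to −0.015 with scaling by library size alone. SRSF6 (119 and 117 against 108 and 109 CPM) fell by 0.12, and this call too was lost without any one of the 4 libraries (adjusted p 0.0649 to 0.153, edgeR). SRSF5, SRSF9 and SRSF10 did not pass, with log2 fold changes of −0.08, 0.07 and 0.09. Without KD replicate 1, SRSF5 was called at −0.14 (edgeR adjusted p = 0.0289).

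In SUM159 the SR genes moved further and in both directions. Of the 10 genes 5 rose and 4 fell in KD, where 28.6% of all tested genes were called higher and 31.4% lower. The median absolute log2 change was 0.26 over the SR genes and 0.46 over all genes. SRSF1, which binds purine-rich exonic enhancers and can act as an oncogene, rose most. SRSF6, SRSF7, SRSF10 and SRSF11 fell.

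SRSF1 (chr17:58000919-58007346, minus strand) was at 209 and 208 CPM in SUM159 EV and at 337 and 339 CPM in KD. The KD libraries were 1.62 times the EV libraries and the groups did not overlap. The log2 fold change was 0.69 ± 0.03 (SE, n = 2 per group; edgeR adjusted p = 7.94e-16). SRSF9 (chr12:120461672-120495946, minus strand), a short SR protein related to SRSF1, was at 440.1 and 412 CPM in EV and 548 and 520.2 in KD. It rose by 0.32 ± 0.03 (edgeR adjusted p = 2.05e-08). SRSF5 (chr14:69726900-69772005, plus strand), an SR protein with tandem RNA recognition motifs, was at 124 and 125 CPM in EV and 151 and 153 in KD, and rose by 0.29 ± 0.04.

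SRSF3 (chr6:36594353-36605600, plus strand), the smallest of the SR proteins and a factor in mRNA export, was at 809 and 796 CPM in SUM159 EV and 924 and 943 in KD. Its rise of 0.22 ± 0.03 on the log2 scale was small beside that of SRSF1, but SRSF3 had the highest level of the 10 genes in SUM159. SRSF2 (chr17:76734115-76737333, minus strand), an SR protein that stays in the nucleus and acts in splicing and in release of paused RNA polymerase, was at 123 and 117 CPM in EV and 142 and 134 in KD, and rose by 0.20 ± 0.04.

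Among the genes that fell, SRSF6 (chr20:43457893-43466046, plus strand), an SR protein close in sequence to SRSF4 and SRSF5, was at 86.0 and 85.0 CPM in EV and 64.1 and 64.0 in KD. This is a log2 fold change of −0.42 ± 0.05 (edgeR adjusted p = 4.58e-08). SRSF11 was at 109 and 108 CPM in EV and 89.1 and 89.0 in KD, and fell by 0.28 ± 0.05, against its rise in MDA-MB-231. SRSF7 (chr2:38743599-38751494, minus strand), which carries a zinc knuckle and takes part in mRNA export, was at 266 and 264 CPM in EV and 222 and 226 in KD, and fell by 0.24 ± 0.03. In these 3 genes both KD libraries lay below both EV libraries. No share over all genes was counted for this, and with 2 libraries per group it says little.

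SRSF10 (chr1:23964347-23980927, minus strand), an SR protein that represses splicing when dephosphorylated, was at 140.2 and 148 CPM in SUM159 EV and 129 and 139.7 in KD. Its fall of 0.10 (edgeR adjusted p = 0.0443) was lost without EV replicate 2 (−0.06, adjusted p = 0.314), without KD replicate 1 (−0.04, 0.438) and with RLE size factors (−0.04, 0.383). SRSF4 (116 and 119 against 118 and 110.5 CPM) did not pass, with a log2 fold change of −0.04. Without KD replicate 2 its value was 0.01.

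**Figure D2:**
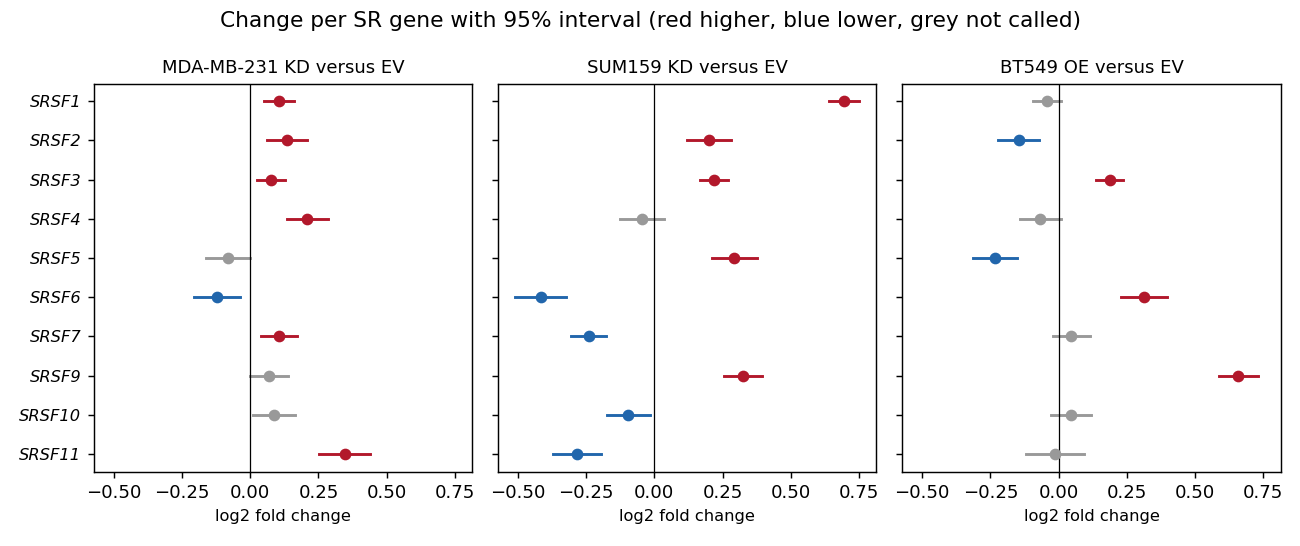
log2 fold change of each SR gene with its 95% interval in MDA-MB-231 KD, SUM159 KD and BT549 OE against EV; red points were called higher, blue lower and grey not called. The intervals use a normal quantile and are too narrow for the few degrees of freedom. SRSF1 stands at 0.11, 0.69 and −0.04 and SRSF9 at 0.07, 0.32 and 0.66 in the 3 comparisons.

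The 2 lines differed in how the SR genes changed with knockdown. The difference of the KD effects (MDA-MB-231 minus SUM159, tested in the same edgeR model) was called for 9 of the 10 genes, 5 with a higher value in MDA-MB-231 and 4 with a lower one. Of all tested genes 27.7% were called higher and 23.2% lower in that difference. SRSF11 differed most upward, by 0.63 ± 0.07 (edgeR adjusted p = 2.22e-08), having risen in one line and fallen in the other. SRSF1 differed most downward, by −0.59 ± 0.04 (adjusted p = 1.35e-11, edgeR). The differences were 0.35 for SRSF7, 0.30 for SRSF6, 0.25 for SRSF4, 0.18 for SRSF10, −0.37 for SRSF5, −0.26 for SRSF9 and −0.14 for SRSF3. The call of SRSF10 was lost without SUM159 EV replicate 2 (0.15, adjusted p = 0.0559) or KD replicate 1 (0.13, 0.0605, edgeR). For SRSF2 the difference was −0.06 with a 95% interval of −0.17 to 0.04. The depletion of TRMT112 itself was also unequal, with a difference of −0.47 between the lines, and its part in these differences was not tested.

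With TRMT112 overexpression in BT549, 3 SR genes rose, 2 fell and 5 did not pass, while 35.6% of all tested genes were called higher and 35.0% lower. The median absolute log2 change was 0.11 over the SR genes against 0.70 over all genes. SRSF9 had 227 and 239 CPM in the EV libraries against 376 and 361 in OE, a gap wider than the level differences within either pair. It rose by 0.66 ± 0.04 on the log2 scale (edgeR adjusted p = 1.19e-13). SRSF6 was at 106 and 117 CPM in EV and at 139 CPM in both OE libraries, and rose by 0.31 ± 0.04. Its coding transcripts were at 59.3 and 62.8 CPM in EV and 63.9 and 63.5 in OE, and its NMD transcripts at 39.5 and 42.0 against 56.9 and 52.1. Its transcripts without a defined coding sequence were at 7.18 and 12.6 CPM against 17.9 and 23.1, and this type was not tested. SRSF3 was at 674 and 682 CPM in EV and 783 and 761 in OE, and rose by 0.19 ± 0.03. SRSF9 and SRSF3 thus rose in SUM159 KD and in BT549 OE, 2 comparisons in which TRMT112 itself moved in opposite directions.

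SRSF5 was at 197 and 206 CPM in BT549 EV and 173 and 169 in OE, and fell by 0.23 ± 0.04 (edgeR adjusted p = 2.34e-05). SRSF2 was at 252 and 256 CPM in EV and 232 and 227 in OE, and fell by 0.15 ± 0.04. Both genes were lower in each OE library than in each EV library, and so was SRSF4, whose change was not called. SRSF1, the gene with the largest rise in SUM159, was at 685 and 702 CPM in EV and 674 and 674 in OE, with a log2 fold change of −0.04 and a 95% interval of −0.09 to 0.01. Within this sum the estimated counts of coding transcripts moved in both directions, and single transcripts were not tested. SRSF1-205 was at 296 and 299 CPM in EV and 327 and 338 in OE. SRSF1-201 was at 92.3 and 107 CPM against 63.0 and 69.7, and SRSF1-208 at 115 and 123 against 105 and 96.2. SRSF4, SRSF7, SRSF10 and SRSF11 had log2 fold changes of −0.07, 0.05, 0.05 and −0.01, and that of SRSF11 turned to 0.05 without EV replicate 2 and to 0.01 without OE replicate 2.

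The control libraries of the 3 lines also differed in most SR genes. SRSF1 was 3.32 times as high in BT549 EV as in SUM159 EV, a log2 difference of 1.73 ± 0.03 (edgeR adjusted p = 3.31e-24). Between SUM159 EV and MDA-MB-231 EV, 4 SR genes were higher in SUM159 and 5 lower, where 39.2% and 36.4% of all genes were called. SRSF3 (0.81), SRSF11 (0.63), SRSF7 (0.56) and SRSF9 (0.20) were higher in SUM159 on the log2 scale, and SRSF1 (−0.84), SRSF2 (−0.77), SRSF6 (−0.46), SRSF5 (−0.42) and SRSF4 (−0.26) were lower. SRSF10 did not pass (−0.05).

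In BT549 EV, 6 SR genes were higher and 3 lower than in MDA-MB-231 EV, where 39.1% and 40.4% of all genes were called. The largest differences were 0.89 for SRSF1, 0.87 for SRSF10 and −0.67 for SRSF9. Scaling by library size alone moved the median of all genes in this comparison to −0.34 and turned SRSF2 from 0.31 to −0.0070 and SRSF5 from 0.28 to −0.035, so that these 2 directions depend on the scaling. The call of SRSF7 (−0.08) was lost without 8 of the 12 libraries taken one at a time, MDA-MB-231 EV replicate 2 (−0.05, edgeR adjusted p = 0.321) and BT549 EV replicate 1 (−0.04, 0.384) moving it most. Against SUM159 EV, 6 SR genes were higher and 4 lower in BT549, where 37.7% and 40.7% of all genes were called. After SRSF1 the largest of these were 1.08 for SRSF2, −1.04 for SRSF11 and 0.92 for SRSF10.

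Across the 6 groups, SRSF1, SRSF2, SRSF4 and SRSF5 were highest in BT549 EV, SRSF3 and SRSF9 in SUM159 KD, SRSF7 and SRSF11 in SUM159 EV, and SRSF6 and SRSF10 in BT549 OE. The ratio of the highest to the lowest group mean ran from 1.56 for SRSF7 to 3.32 for SRSF1. For SRSF1 and SRSF3 no pair of neighboring groups in the order overlapped, whereas for SRSF5 3 neighboring pairs did. No share over all genes stands beside this. With 2 libraries per group a lack of overlap says little: SRSF1 in BT549 EV and OE did not overlap, yet its change was not called. The 10 genes did not share 1 profile.

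NMD transcripts made up a larger share of SR counts in polysomes than of the counts of all genes. All genes include those without an annotated NMD transcript, whereas each of the 10 SR genes has such transcripts. Over the 10 genes, 9.80% to 11.5% of counts fell on NMD transcripts in the group means, against 3.19% to 3.59% over all genes. Scaled by length, the range over libraries was 11.8% to 15.6% for the 10 genes and 3.29% to 3.69% for all genes. The share of counts, again in the group means, depended on the gene. It was 34.1% to 39.9% in SRSF6, 11.0% to 33.0% in SRSF2, 16.3% to 21.2% in SRSF1 and 13.3% to 15.6% in SRSF3, between 1.33% and 5.45% in SRSF4, SRSF7 and SRSF11, and at or below 1.09% in SRSF5, SRSF9 and SRSF10. The shares come from estimated counts of overlapping transcripts, and a longer transcript takes more counts at the same number of molecules.

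SRSF6-202, with the poison exon printed above, carried all NMD counts of SRSF6. It was at 44.9 and 49.2 CPM in MDA-MB-231 EV, 41.7 and 40.5 in KD, 28.9 and 29.4 in SUM159 EV, 22.3 and 22.6 in KD, 39.5 and 42.0 in BT549 EV and 56.9 and 52.1 in OE. These levels sit beside 58.7 and 57.5 CPM in MDA-MB-231 EV for SRSF6-201, the most abundant coding transcript, which was 50.0 and 47.6 CPM in SUM159 EV and 41.9 and 53.2 in BT549 EV. The poison-exon transcript, which is itself part of the gene sum, was lowest in SUM159 KD and highest in BT549 OE. The coding sum of SRSF6 was also lowest in SUM159 KD (40.0 and 38.6 CPM), but in BT549 it was 59.3 and 62.8 CPM in EV against 63.9 and 63.5 in OE. Both OE values lay between the 66.2 and 62.8 CPM of MDA-MB-231 EV.

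SRSF3-203 was at 65.8 and 59.8 CPM in MDA-MB-231 EV, 59.7 and 55.3 in KD, 108 and 99.8 in SUM159 EV, 126 and 121 in KD, 101 and 94.3 in BT549 EV and 98.4 and 86.1 in OE. It was high in SUM159, as the gene was, and its 2 groups in MDA-MB-231 and in BT549 came close or overlapped. SRSF1-206 was at 65.3 and 73.8 CPM in MDA-MB-231 EV, 73.8 and 75.9 in KD, 34.3 and 32.9 in SUM159 EV, 55.1 and 50.7 in KD, 127 and 124 in BT549 EV and 128 and 126 in OE. Like SRSF1 as a whole, it was higher in KD than in EV in SUM159, and the 2 BT549 groups overlapped.

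**Figure D3:**
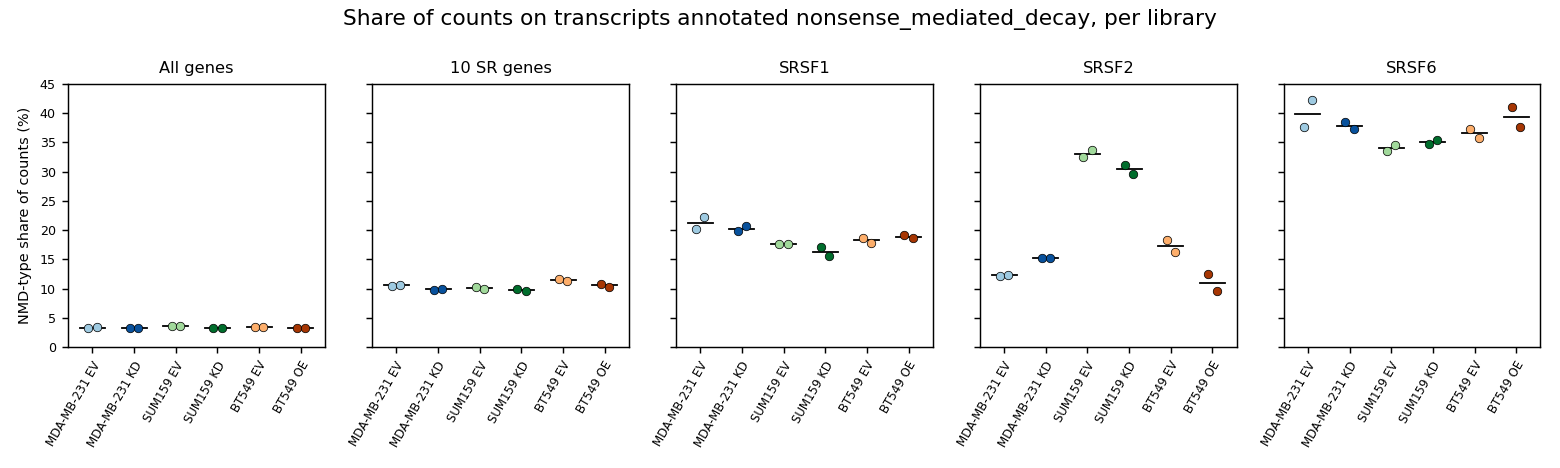
Share of counts (%) that fell on transcripts annotated nonsense_mediated_decay in each library for all genes, for the 10 SR genes together and for SRSF1, SRSF2 and SRSF6; points are libraries and lines are means of 2 libraries. SRSF2 stands out in SUM159, at 33.0% in EV and 30.4% in KD against 12.3% in MDA-MB-231 EV, while SRSF6 lies between 33.6% and 42.2% in all libraries.

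When the NMD counts of each gene were summed and tested as features of their own, 4236 genes were tested, among them all 10 SR genes. In MDA-MB-231 KD 1 SR gene was higher and 2 lower, where 2.86% and 2.93% of all NMD sums were called. SRSF2 NMD transcripts were at 25.5 and 24.9 CPM in EV and 35.3 and 33.5 in KD and rose by 0.45 ± 0.11 (edgeR adjusted p = 0.0102), a call lost without EV replicate 2 (0.44, adjusted p = 0.0618) or KD replicate 1 (0.41, 0.0689). SRSF7 NMD transcripts were at 9.07 and 9.62 CPM in EV and 5.25 and 5.87 in KD and fell by 0.75 ± 0.21 (adjusted p = 0.0235, edgeR), a call lost without any one of the 4 libraries (0.07 to 0.143). SRSF7 as a whole went the other way in this comparison. The fall of SRSF6 NMD transcripts by 0.20 (adjusted p = 0.0495, edgeR) was lost without most single libraries, with 0.358 without EV replicate 2 as the highest adjusted p.

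In SUM159 KD 2 NMD sums of SR genes were higher and 2 lower, where 6.92% and 8.59% of all NMD sums were called. SRSF1 rose by 0.59 ± 0.05 (edgeR adjusted p = 2.88e-06), from 36.7 and 36.6 CPM to 57.5 and 52.6. SRSF3 rose by 0.21 ± 0.06, from 119 and 111 CPM to 136 and 131, a call lost without EV replicate 2 (0.16, edgeR adjusted p = 0.107) or KD replicate 1 (0.18, 0.0711). SRSF6 fell by 0.37 ± 0.07 and SRSF7 fell by 0.82 ± 0.20 (edgeR adjusted p = 0.00566), the latter from 14.5 and 14.4 CPM to 7.86 and 8.50. SRSF7 NMD counts were thus lower in KD in both lines, while its coding counts fell by 0.21 in SUM159 and rose by 0.14 in MDA-MB-231. The MDA-MB-231 coding call was lost without EV replicate 1 (0.11, edgeR adjusted p = 0.0718) or KD replicate 1 (0.13, 0.0602).

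In BT549 OE 1 NMD sum of an SR gene was higher and 1 lower, where 11.9% and 13.9% of all NMD sums were called. SRSF6 rose by 0.42 ± 0.07 (edgeR adjusted p = 1.55e-04). SRSF2 NMD transcripts were at 46.2 and 41.6 CPM in EV and 28.8 and 21.9 in OE, and fell by 0.79 ± 0.11 (edgeR adjusted p = 5.16e-05). Both of these were called without any one library. The difference of the KD effects between the lines was called higher for 0 and lower for 2 NMD sums, SRSF1 (−0.54) and SRSF3 (−0.28), where 6.14% and 5.5% of all were called.

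Coding transcripts carried more counts than any other type in every SR gene and group, at 80.8% to 82.5% over the 10 genes in single libraries. In MDA-MB-231 KD the protein_coding sums of 3 SR genes were higher and 0 lower (SRSF11 0.45, SRSF4 0.21, SRSF7 0.14 on the log2 scale), where 19.3% and 11.8% of all protein_coding sums were called. In SUM159 KD 5 were higher (SRSF1 0.69, SRSF9 0.33, SRSF5 0.28, SRSF2 0.26, SRSF3 0.20) and 3 lower (SRSF6 −0.44, SRSF11 −0.41, SRSF7 −0.21), where 26.8% and 32.0% were called. In BT549 OE 2 were higher (SRSF9 0.66, SRSF3 0.21) and 1 lower (SRSF5 −0.21), where 33.8% and 35.8% were called. The difference of the KD effects was called for all 10 coding sums, 5 higher and 5 lower in MDA-MB-231, where 27.9% and 20.2% were called, from 0.87 for SRSF11 to −0.60 for SRSF1. In BT549 OE the coding sums of SRSF2 and SRSF6 did not pass, although their NMD sums did. A direct test of the ratio of the 2 types, given below, called SRSF2 but not SRSF6.

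The balance between types within a gene was tested as the log2 ratio of NMD to protein_coding counts (limma, 3357 genes, 9 SR genes with enough counts). In MDA-MB-231 KD 0 of the 9 were called, as were 0.0% of all genes, with 2 of 9 and 244 of 3357 at an unadjusted p under 0.05. The nearest was SRSF7, with a log2 ratio change of −0.88 and a 95% interval of −1.44 to −0.32 (limma adjusted p = 0.484). In SUM159 KD 0 of the 9 were called (limma; 0 of 9 and 345 of 3357 at an unadjusted p under 0.05), where 0.357% of all genes were higher and 0.238% lower, and SRSF7 was at −0.60 (limma adjusted p = 0.514). The difference of the KD effects was called by limma for 0 of the 9 and 0.0% of all genes, with 1 of 9 and 300 of 3357 at an unadjusted p under 0.05. The ratios of SRSF1 and SRSF3 changed by −0.10 (95% interval −0.32 to 0.12) and 0.01 (−0.17 to 0.20) in SUM159 KD, where both genes rose.

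In BT549 OE 1 of the 9 ratios was lower and 0 higher, where 1.52% and 1.7% of all genes were called. The unadjusted limma p was under 0.05 for 3 of 9 and 597 of 3357. The log2 ratio of SRSF2 stood at −2.15 and −2.36 in the EV libraries against −2.81 and −3.22 in the OE libraries, so that the groups did not overlap. The change was −0.76 ± 0.16 (limma adjusted p = 0.0289). The call was lost without EV replicate 1 (−0.66, adjusted p = 0.151), EV replicate 2 (−0.86, 0.0639) or OE replicate 2 (−0.56, 0.159, limma). SRSF2-208, the main SRSF2 NMD transcript, went from 40.4 and 36.3 CPM in EV to 21.6 and 18.4 in OE, and SRSF2-202, the main coding transcript, was at 196 and 207 CPM in EV and 196 and 196 in OE. The SRSF6 ratio changed by 0.36 ± 0.14 and was not called (limma adjusted p = 0.194).

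The SRSF2 ratio differed between all 3 pairs of control lines. It was −2.82 and −2.81 in MDA-MB-231 EV, −1.04 and −0.95 in SUM159 EV and −2.15 and −2.36 in BT549 EV, with SUM159 far above the others. The difference was 1.82 ± 0.16 between SUM159 and MDA-MB-231 (limma adjusted p = 9.5e-05), where 3.6% of all genes were called higher and 3.9% lower, and −1.26 between BT549 and SUM159 (limma adjusted p = 9.62e-04), where 5.33% were called lower and 3.87% higher. Both were kept without any one library. In SUM159 EV the coding transcript SRSF2-202 was at 77.6 and 71.2 CPM, against 170 and 165 in MDA-MB-231 EV, while SRSF2-208 was at 21.5 and 21.0 against 10.6 and 13.5. The difference of 0.56 between BT549 and MDA-MB-231 (limma adjusted p = 0.0421), where 5.72% of genes were called higher and 8.22% lower, was lost without any one of 10 libraries, among them BT549 EV replicate 1 (0.46, 0.195) and MDA-MB-231 EV replicate 1 (0.55, 0.143). The SRSF7 ratio was lower in BT549 than in MDA-MB-231 (−0.97) and SUM159 (−1.04), at limma adjusted p-values of 0.0446 and 0.0453, and both were lost without BT549 EV replicate 1 (−0.66 and −0.73, adjusted p = 0.224 and 0.219) and without most other single libraries.

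**Figure D4:**
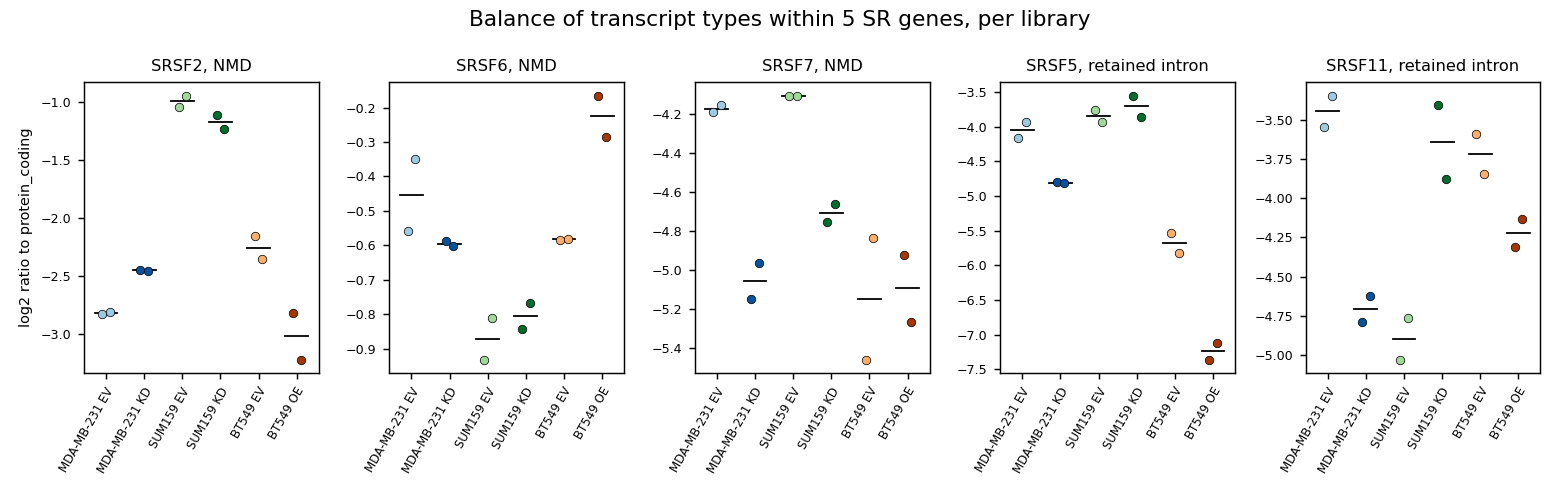
log2 ratio of NMD or retained_intron counts to protein_coding counts in each library for SRSF2, SRSF6 and SRSF7 (NMD) and SRSF5 and SRSF11 (retained_intron); points are libraries and lines are means of 2 libraries. The SRSF2 NMD ratio is between −1.23 and −0.95 in the SUM159 libraries and at −2.15 or lower in all others, and the SRSF5 retained_intron ratio is lowest in BT549 OE, at −7.36 and −7.12.

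Retained-intron transcripts took 5.97% to 7.81% of SR counts in single libraries and 1.48% to 1.84% of the counts of all genes. All genes include those without an annotated retained_intron transcript, whereas each SR gene but SRSF6 has such transcripts. By gene, given as means of the 2 libraries of a group, SRSF3 had the largest share, 13.6% to 17.5%. Its main retained_intron transcript, SRSF3-206, is a model of 544 bases with 221 bases from within an intron of the main coding transcript, and it was at 64.6 and 72.8 CPM in MDA-MB-231 EV, 118 and 133 in SUM159 EV and 86.9 and 92.6 in BT549 EV. SRSF1 (5.57% to 9.76%), SRSF10 (5.92% to 10.5%) and SRSF11 (3.06% to 7.79%) followed. SRSF5 was at 6.12% in SUM159 EV but at 1.81% in BT549 EV and 0.589% in OE.

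For retained_intron sums 8 SR genes had enough counts to be tested, among 3807 genes. In MDA-MB-231 KD 1 was higher and 2 lower, where 2.18% and 2.0% of all were called. SRSF5 was at 8.44 and 9.30 CPM in EV and 5.24 and 4.74 in KD and fell by 0.82 ± 0.19 (edgeR adjusted p = 0.00922), a call lost without EV replicate 2 (−0.75, adjusted p = 0.0732) or KD replicate 2 (−0.75, 0.0756). SRSF11 was at 4.91 and 6.04 CPM in EV and 2.89 and 3.27 in KD and fell by 0.83 (edgeR adjusted p = 0.0389), lost without any one of the 4 libraries or of the 2 BT549 EV libraries, with 0.23 without EV replicate 2 as the highest. SRSF3 rose by 0.26 (edgeR adjusted p = 0.0195), from 66.9 and 74.1 CPM to 83.4 and 85.1, a call lost without EV replicate 1 (0.18, 0.17), KD replicate 1 (0.27, 0.0651) or KD replicate 2 (0.24, 0.098). The nuclear RNA MALAT1 rose in the same comparison, from 17.6 and 17.0 CPM to 24.3 and 26.0 (0.54, edgeR adjusted p = 4.74e-05), and its part in these values was not tested.

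In SUM159 KD 3 retained_intron sums of SR genes were higher and 0 lower, where 8.96% of all were called higher and 4.07% lower. The median over all genes was 0.30 and that of the 8 SR genes 0.41. SRSF1 rose by 1.03 ± 0.23 (edgeR adjusted p = 0.0034), from 9.26 and 14.0 CPM to 29.1 and 18.7, with a wide spread in both groups. SRSF11 rose by 0.87 ± 0.26 (edgeR adjusted p = 0.016), from 3.01 and 3.62 CPM to 7.03 and 5.07, a call lost without EV replicate 1 (0.74, 0.109) or KD replicate 1 (0.61, 0.155). SRSF3 rose by 0.30 ± 0.06, from 121 and 135 CPM to 151 and 166. MALAT1 was at 74.4 and 78.0 CPM in EV and 73.1 and 75.8 in KD.

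In BT549 OE 1 was higher and 1 lower, where 11.1% and 10.8% of all were called. SRSF5 was at 3.89 and 3.39 CPM in EV and 0.934 and 1.08 in OE, with no overlap. It fell by 1.85 ± 0.23 (edgeR adjusted p = 2.81e-05) and was called without any one library. SRSF3 rose by 0.29 ± 0.07, from 88.7 and 95.5 CPM to 112 and 113. The difference of the KD effects was called lower for SRSF11 (−1.70) and SRSF5 (−1.26) and higher for 0 of the 8, where 6.41% and 3.26% of all were called.

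As a ratio to protein_coding counts (limma, 2651 genes, 8 SR genes), 0 of the 8 were called in MDA-MB-231 KD, as were 0.0% of all genes, with 2 of 8 and 218 of 2651 at an unadjusted p under 0.05. In BT549 OE 1 was lower and 0 higher, where 2.94% and 4.41% of all were called. The log2 ratio of SRSF5 stood at −5.54 and −5.82 in the EV libraries against −7.36 and −7.12 in the OE libraries, a change of −1.56 ± 0.25 (limma adjusted p = 0.00442) that was called without any one library but not by edgeR's diffSpliceDGE (−1.12, adjusted p = 0.0582). In SUM159 KD 1 was higher and 0 lower, where 3.66% and 0.717% of all were called. This was SRSF11, with a change of 1.25 ± 0.28 (limma adjusted p = 0.0364) that was lost without any one of the 8 MDA-MB-231 and SUM159 libraries (adjusted p 0.0502 to 0.209). Its difference between the lines, −2.51 ± 0.40 (limma adjusted p = 0.0252), where 0.377% of genes were called lower and 0.0754% higher, was lost in the same way (0.0532 to 0.118). SRSF11-214, the main retained_intron transcript of SRSF11, spans all 288 bases that are particular to the poison exons of SRSF11-217, so that reads in them can be counted to either transcript.

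Retained-intron ratios also differed between the control lines. SRSF5 was lower in BT549 EV than in MDA-MB-231 EV by 1.63 (limma adjusted p = 0.00128) and than in SUM159 EV by 1.83 (limma adjusted p = 9.16e-04), both kept without any one library. Between SUM159 and MDA-MB-231 3 of the 8 ratios were lower, where 8.56% of all were called lower and 5.21% higher: SRSF9 (−1.78), SRSF11 (−1.45) and SRSF10 (−0.84). Each of these calls was lost without MDA-MB-231 EV replicate 2 (limma adjusted p = 0.209, 0.0509 and 0.0852) and without at least 1 SUM159 EV library. Between BT549 and MDA-MB-231 3 were lower, where 14.0% of all were called lower and 7.39% higher: SRSF2 (−2.86), SRSF9 (−2.37) and SRSF5. The SRSF2 call was lost without BT549 EV replicate 1 (−2.16, limma adjusted p = 0.071) or MDA-MB-231 EV replicate 1 (−2.52, 0.0772), and that of SRSF9 without MDA-MB-231 EV replicate 2 (−1.92, 0.0644). Between BT549 and SUM159 SRSF2 (−3.46) and SRSF5 were lower, where 8.68% were called lower, and SRSF11 was higher (1.18), where 8.37% were called higher. The SRSF11 call was lost without SUM159 EV replicate 1 (1.04, limma adjusted p = 0.0923) or BT549 EV replicate 1 (1.05, 0.0862). SRSF2 and SRSF9 retained_intron counts were low, at or below 2.94 and 4.92 CPM in every library.

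The wider splicing machinery was described by gene lists from general knowledge, whose counts were read against the shares of all tested genes. Those were 28.6% higher and 31.4% lower in SUM159 KD, 21.2% and 16.5% in MDA-MB-231 KD, and 35.6% and 35.0% in BT549 OE. No list was tested against the other genes or against the SR genes, of which 5 rose and 4 fell in SUM159 KD. Of 25 heterogeneous nuclear ribonucleoproteins and PTB proteins, which often oppose SR proteins at exons, 1 rose and 21 fell in SUM159 KD (median log2 fold change −0.71 against 0.00 over all genes), 4 rose and 10 fell in MDA-MB-231 KD, and 9 rose and 13 fell in BT549 OE, where the 9 is near the share of all genes called higher. HNRNPA2B1 was at 1186 and 1173 CPM in SUM159 EV and 407 and 434 in KD, and fell by 1.49 (edgeR adjusted p = 1.02e-21). It rose by 0.27 in MDA-MB-231 KD and fell by 0.54 in BT549 OE. HNRNPA3 and HNRNPD fell by 1.07 and 1.04 in SUM159 KD.

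Of 14 core partners at the splice sites, 1 rose and 13 fell in SUM159 KD (median −0.55), 2 rose and 5 fell in MDA-MB-231 KD, and 7 rose and 3 fell in BT549 OE, against 31.4%, 16.5% and 35.0% of all genes called lower. SF3B2 and SF3A3, subunits of the U2 particle, fell by 1.08 and 1.07 in SUM159 KD, and PRPF8, at the center of the spliceosome, fell by 0.40 there and rose by 1.78 in BT549 OE. Of 15 SR-like and transformer proteins, 2 rose and 9 fell in SUM159 KD (median −0.35), 1 rose and 4 fell in MDA-MB-231 KD, and 9 rose and 2 fell in BT549 OE. The 4 lower in MDA-MB-231 KD stand beside 16.5% of all genes, and the 9 higher in BT549 OE beside 35.6%. SRSF8, an SR gene outside the 10, was at 2.89 and 3.38 CPM in BT549 EV and 35.8 and 35.6 in OE, a log2 fold change of 3.51 (edgeR adjusted p = 2.06e-19). PNN, an SR-like protein of the exon junction, fell by 0.83 in SUM159 KD and by 0.50 in MDA-MB-231 KD, and SRRM2, a spliceosomal scaffold, rose by 1.65 in BT549 OE.

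Of 12 tested genes for SR protein kinases, phosphatase and import, 2 rose and 5 fell in SUM159 KD, 5 rose and 2 fell in MDA-MB-231 KD, and 4 rose and 4 fell in BT549 OE. The BT549 counts are near the 35.6% and 35.0% of all genes called, and those in SUM159 KD stand beside 28.6% higher and 31.4% lower. With scaling by library size alone the MDA-MB-231 count was 1 higher and 4 lower, and the median went from 0.06 to −0.03. SRPK1, a kinase of the arginine-serine repeats, and TNPO3, which imports SR proteins into the nucleus, fell by 0.86 and 0.68 in SUM159 KD. PPP1CA, a catalytic subunit of protein phosphatase 1, rose by 0.67 there.

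Of 22 nonsense-mediated decay factors and exon junction proteins, 4 rose and 15 fell in SUM159 KD (median −0.42), 4 rose and 7 fell in MDA-MB-231 KD, and 10 rose and 8 fell in BT549 OE. The 4 that rose in MDA-MB-231 KD and the 8 that fell in BT549 OE are near the shares of all genes called (21.2% and 35.0%). The MDA-MB-231 median was 0.04 and turned to −0.05 with scaling by library size alone. GSPT1, a translation termination factor, fell by 0.78 in SUM159 KD and rose by 1.20 in BT549 OE. RNPS1, a peripheral exon junction protein, rose by 0.22 and by 1.28 in the same comparisons, and SMG5, a decay factor that is itself a target of the pathway, rose by 0.34 in SUM159 KD and fell by 0.85 in BT549 OE.

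Of 10 transcripts known as normal targets of nonsense-mediated decay outside splicing, 3 rose and 6 fell in SUM159 KD (median −0.27), 1 rose and 6 fell in MDA-MB-231 KD (−0.34), and 3 rose and 6 fell in BT549 OE (−0.67), where 31.4%, 16.5% and 35.0% of all genes were called lower. ASNS, asparagine synthetase, fell by 2.73 in SUM159 KD and by 0.82 in MDA-MB-231 KD. ATF4, the transcription factor that activates ASNS, fell by 1.01 in SUM159 KD and by 0.74 in BT549 OE, and GADD45A fell by 1.13 in BT549 OE. Of 5 nuclear retained RNAs, 0 were called in SUM159 KD by edgeR, with NEAT1 the nearest (−0.52, adjusted p = 0.0621), 1 rose in MDA-MB-231 KD (MALAT1), and 1 rose (NEAT1, 1.99) and 1 fell (MEG3, from 11.8 and 11.9 CPM to 0.0463 and 0.0473) in BT549 OE. Of all genes, 28.6% were called higher and 31.4% lower in SUM159 KD, and 21.2% higher in MDA-MB-231 KD. In BT549 OE 35.6% were higher and 35.0% lower, so that 1 of 5 is near or below these shares.

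**Figure D5:**
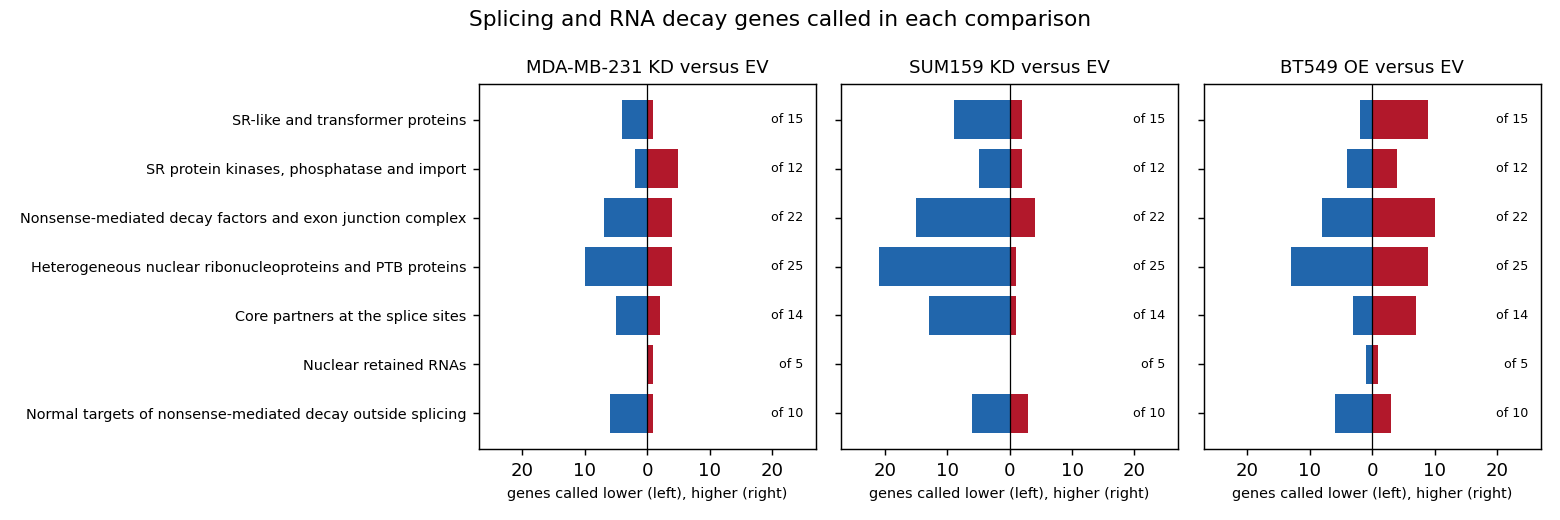
Number of genes called lower (bars to the left) and higher (bars to the right) at an edgeR adjusted p under 0.05 for 7 gene lists in MDA-MB-231 KD, SUM159 KD and BT549 OE against EV. In SUM159 KD 21 of 25 hnRNP and PTB genes and 13 of 14 core partners were lower.

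By level over the 12 libraries, the genes whose log2 CPM most resembled the mean of the 10 SR genes were EIF6 (Pearson r = 0.982), YWHAB (0.982), ADAMTS15 (0.98), FHIP2B (0.98) and ATP6V0D1 (0.979) among 12579 genes compared. The 12 points share 3 cell lines and 6 groups, so that these values describe the likeness of line profiles. The SR mean itself moved little.

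Some SR genes share exonic bases with neighbors. SRSF2 shares 823 bases with MFSD11 and SRSF9 shares 1725 bases with GATC, both on the opposite strand. The neighbors had 297 and 1379 counts on average against 4627 for SRSF2 and 9353 for SRSF9, and since the strand setting of the counting is not stated, reads in the shared bases cannot be told apart. SRSF1 shares 1890 bases on its own strand with a gene that had 66.5 counts on average against 10472 for SRSF1.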

How the data were processed

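The members and gene lists were chosen with earlier results of these data known. Per the methods and the submitters' processing notes, the authors used Trimmomatic for adapters, HISAT2 with GRCh38, SAMtools for duplicates, and Partek. The counting tool, annotation and strand setting are not given in the sources used here. The labels name an oligo-dT kit and the methods a kit for rRNA-depleted total RNA, which bears on retained_intron counts. The values deposited are expected counts for 201932 Ensembl transcripts, without normalization. In 10254 of them (5.08%) the 8 MDA-MB-231 and SUM159 columns, whose unit was recorded as other, hold a mark in place of a number. These deposited marks were counted as 0 and touch no SR transcript. No listed transcript is at 0 in all 4 BT549 libraries. All value columns were used, none being left over.

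Transcripts were matched to GENCODE 44 without version numbers (79.6%, holding 99.2% to 99.4% of counts), summed per symbol, or per symbol and type, and rounded. Library totals of 22954226 to 27434677 set the precision, and reads carry no molecular identifiers. Tests used edgeR 4.0.16 (quasi-likelihood, TMM, filterByExpr) in R 4.3.3, fitting all 6 group means at once (6 residual degrees of freedom), called at a Benjamini-Hochberg adjusted p under 0.05 over all features. Log2 ratios of types (pseudocount of 2 normalized counts, mean of at least 10 in both types) were tested with limma 3.58.1. SEs are from these fits, and 95% intervals are the estimate plus or minus a normal quantile times the SE. With few degrees of freedom these intervals are too narrow. Those of SRSF5 and SRSF9 in MDA-MB-231 KD exclude 0 at unadjusted edgeR p-values of 0.0587 and 0.0627. Calls rest on the adjusted p-values and not on the intervals. The genes named are the members, the main transcript of each type, and the 3 list genes with the smallest p per list. Ratio tests between control lines were added after the data were seen. DESeq2 1.42.0, other scalings and filters, and leaving out each library were alternatives. Scripts were tested on simulated data. Python 3.11.15 with pandas 2.3.3 and matplotlib 3.10.9 prepared tables and figures.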

Additional observations from a re-analysis of the deposited data

Results flagged for a closer look

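The 10 results here were marked because the effect of TRMT112 knockdown differed between MDA-MB-231 and SUM159, by a test of the difference itself (edgeR's quasi-likelihood test for gene sums, limma for the ratio, Benjamini-Hochberg adjusted p under 0.05). The differences, MDA-MB-231 minus SUM159 on the log2 scale, were −0.59 for SRSF1, −0.14 for SRSF3, 0.25 for SRSF4, −0.37 for SRSF5, 0.30 for SRSF6, 0.35 for SRSF7, −0.26 for SRSF9, 0.18 for SRSF10 and 0.63 for SRSF11. The call of SRSF10 was lost without SUM159 EV replicate 2 (0.15) or KD replicate 1 (0.13). For the retained_intron to protein_coding ratio of SRSF11 the difference was −2.51, and this call was lost without any one of the 8 libraries involved (limma adjusted p 0.0532 to 0.118). The groups of 2 libraries were too small to test for single libraries that stand apart.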

How the results depend on the processing

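Counts of SR genes called moved mainly in MDA-MB-231 KD, where changes were small. With scaling by library size alone, 2 genes were higher and 2 lower in place of 6 and 1, the lower protein_coding sums went from 0 to 1 and the higher retained_intron sums from 1 to 0. That scaling turned SRSF3 in MDA-MB-231 KD to −0.015 and, between BT549 and MDA-MB-231 EV, SRSF2 to −0.0070 and SRSF5 to −0.035. There it moved the share of higher genes among all called from 49.1% to 38.4%. With RLE size factors or DESeq2, 0 genes were lower in MDA-MB-231 KD and 1 NMD sum was lower in place of 2, and with DESeq2 6 protein_coding sums were higher in place of 3. Without a filter, 1 NMD sum and 1 retained_intron sum were lower in place of 2 each. For ratios, diffSpliceDGE called 2 NMD ratios lower in BT549 OE in place of 1, and 0 retained_intron ratios in place of 1 in BT549 OE (lower) and in SUM159 KD (higher). Between SUM159 and MDA-MB-231 EV, NMD ratios called lower went from 0 to 1 with a pseudocount of 10 or a mean of at least 50, and to 2 without a minimum. With a mean of at least 50, retained_intron ratios called lower went to 1 in BT549 EV against MDA-MB-231 (from 3) and against SUM159 (from 2). The cause was not tested.

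Replicate numbers did not pair the samples: same-numbered deviations correlated at 0.01, −0.01 and 0.02 in the 3 lines. With a replicate block within each cell line, in MDA-MB-231 KD 0 NMD sums and 1 retained_intron sum were lower in place of 2 each. With the block, 0 in place of 1 ratio was called for NMD in BT549 OE and in BT549 against MDA-MB-231 EV, and for retained_intron in SUM159 KD, in the KD difference and, higher, in BT549 against SUM159 EV. NMD ratios lower in BT549 against SUM159 EV went from 2 to 1, and retained_intron ratios lower in SUM159 against MDA-MB-231 EV from 3 to 0.

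Without any one library, gene calls in MDA-MB-231 KD ranged from 3 to 6 higher and 0 to 1 lower. NMD sums ranged from 0 to 1 higher and 0 to 2 lower there and 1 to 3 higher in SUM159 KD, and retained_intron sums from 0 to 1 higher and 0 to 2 lower in MDA-MB-231 KD and 1 to 2 higher in BT549 OE. Ratios called ranged from 0 to 1 for NMD in BT549 OE and in BT549 against MDA-MB-231 EV in each direction, from 1 to 2 lower for NMD in BT549 against SUM159 EV, from 0 to 3 lower for retained_intron in SUM159 against MDA-MB-231 EV, from 2 to 3 lower in BT549 against MDA-MB-231 EV, and from 0 to 1 in SUM159 KD, the KD difference and, higher, BT549 against SUM159 EV. Depth limits the low sums: the NMD sums of SRSF4 and SRSF11, none of them called, changed sign without a single library in all 3 comparisons.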
